A study of Mus musculus with 6 samples.

Results

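Interferon-stimulated genes are the genes that a cell switches on when type I, II or III interferon binds its receptor. The report follows 40 such genes, taken from a list of mouse gene symbols and matched by Entrez gene ID to 40 rows of the deposited table. Of these, 38 reached 10 normalized counts in 3 or more of the 6 libraries and were kept, out of 12642 genes that passed the same filter and 24454 rows in all. A normalized count is the number of reads on a gene divided by a scaling factor of its library. Ifi44 was listed at 0 in every library, and Rtp4 stood just outside the filter at 15.2, 0 and 4.22 normalized counts in the WT libraries and 13.4, 7.39 and 5.62 in Stat3β TG. Ifit3, at 10.04 or above in exactly 3 libraries, was the member nearest the filter on its inner side.

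The samples were leukaemic blasts of 2 genotypes, 3 libraries each. Wild-type (WT) fetal liver cells came from C57BL/6 littermates, and Stat3β TG cells carried Mx1-Cre recombinase together with a transgene for Stat3β, the truncated product of alternative splicing of Stat3. Both were transformed with a retrovirus for the fusion oncogene MLL-AF9 and injected into NSG recipients, NOD.Cg-PrkdcscidIl2rgtm1Wjl/SzJ mice that lack lymphocytes of their own but keep myeloid cells. The protocol states that mice received poly(I:C) 4 weeks after transplantation and were killed with leukaemia at 6 weeks, when MLL-AF9+ blasts were sorted from bone marrow. The series text names a sort for Venus+ cells beside Stat3β TG, and whether WT cells were sorted by the same reporter is not stated, so a difference in sorting between the genotypes cannot be told apart from genotype. Poly(I:C) imitates double-stranded RNA and induces type I interferon, which drives the Mx1 promoter of the Cre transgene. Whether it still acted on the genes described here at harvest was not tested. The labels give no sample without poly(I:C), no age, and no statement that libraries of a group came from separate donors or recipients, so p-values describe no more than the spread among these libraries.

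Type I interferons bind the receptor chains IFNAR1 and IFNAR2, whose kinases TYK2 and JAK1 phosphorylate transcription factors of the STAT family. With IRF9 these form ISGF3, a complex that binds the interferon-stimulated response element, a repeated GAAA motif in the promoters of its targets. Type II interferon acts mostly through STAT dimers and IRF1. Many of the induced proteins sense or destroy viral RNA, and others, such as USP18, shut the receptor down again.

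Promoters were available from RefSeq (build GRCm38.p6) for 30 of the 38 genes, as windows of 300 bases from 250 before to 50 after a transcript start. The motif GAAANNGAAA, or TTTCNNTTTC on the other strand, was found in 16 of these 30 genes, 53.3%, against 3.99% of 27025 genes with a promoter in the table. The motif TTCNNNGAA, which reads the same on both strands and is the core of sites for STAT dimers, was found in 9 of the 30 against 9.55% of all genes. The following stretches show the response-element motif upstream of 3 genes that were lowest in WT 2 and WT 3 (Isg15, Oas1a and Oas3) and of 4 GTPase genes without that order (Gbp2, Gbp3, Igtp and Irgm1). The capitals mark each match, overlapping matches run together, and every stretch reads 5′ to 3′ along the gene.
Isg15 (chr4:156200860-156200911, minus strand): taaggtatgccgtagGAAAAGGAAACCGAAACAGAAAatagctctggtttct
Oas1a (chr5:120907526-120907560, minus strand): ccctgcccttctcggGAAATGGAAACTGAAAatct
Oas3 (chr5:120777710-120777749, minus strand): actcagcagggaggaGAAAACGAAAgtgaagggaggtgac
Gbp2 (chr3:142620589-142620628, plus strand): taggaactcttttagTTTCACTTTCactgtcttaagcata
Gbp3 (chr3:142559984-142560029, plus strand): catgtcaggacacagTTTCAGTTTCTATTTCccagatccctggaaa
Igtp (chr11:58199507-58199546, plus strand): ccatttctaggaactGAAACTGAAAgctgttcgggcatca
Irgm1 (chr11:48871421-48871465, minus strand): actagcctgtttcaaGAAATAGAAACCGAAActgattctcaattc
Isg15 held 3 overlapping matches in its stretch, and Oas1a, Gbp3 and Irgm1 held 2 each. Of the 12 members with a promoter that were lowest in WT 2 and WT 3, 4 held the motif (33.3%), against 12 of the other 18 (66.7%). The 8 members without a promoter fell unevenly. Usp18, Oas2, Mx1, Mx2, Ifi27l2a and Parp14 were lowest in WT 2 and WT 3, and Dhx58 and Zbp1 were not. These shares therefore do not compare the full sets of genes of both orders. A match is a description of the letters in this window, and the genes of both orders carry it.

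The sequencing depth was 21809788 to 51934498 recovered reads per library. Stat3, the gene from which Stat3β is spliced, stood at 8058 to 16112 normalized counts in WT and 8034 to 11129 in Stat3β TG, a gene-level value that does not separate the splice forms. All 7 blast and progenitor markers (Ptprc, Kit, Cd34, Mpo, Hoxa9, Meis1 and Cebpe) passed the filter. The T cell gene Cd3e was at 0 in every library, but 6 of 9 genes of NK and T cells passed. The highest of these, Nkg7, reached 1415 in WT 1. The libraries did not group by genotype alone. On the first principal component WT 1 lay with Stat3β TG, at -38.3 against -31.4 to -16.3, far from WT 2 at 64.4 and WT 3 at 49.7. The sex-linked genes split them differently: Xist was at 42700 and 45196 in WT 1 and WT 3, 835 in WT 2 and at most 71.6 in Stat3β TG, and 4 Y-linked genes summed to 58.8 and 71.8 in WT 1 and WT 3 and to 8781 to 11012 in the other libraries. The WT libraries were thus not all of 1 cell source. WT 2 was the 1 WT library that shared the sex-linked pattern of Stat3β TG, and with all libraries the genotype and this pattern are confounded in part. Results are therefore given with all libraries, without WT 1, and with WT 1 or WT 2 as the only WT library. Leaving out WT 1 was a choice made from these same values, and WT 3 shares its sex-linked pattern. The p-values without WT 1 are thus descriptions and no separate support for a difference between the genotypes.

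With all 6 libraries no interferon-stimulated gene passed the test. The limma adjusted p was at least 0.668 for all 38 members, and 0 of the 12642 genes tested passed (0.0%). By count tests on recovered reads edgeR passed 0 members and 0.0% of genes, and DESeq2 0 members and 0.134% of genes. At an unadjusted limma p under 0.05 there were 2 members, Oas2 (higher in Stat3β TG) and Eif2ak2 (lower), where 3.56% and 2.54% of all genes tested were higher and lower, 6.1% in all. By edgeR 0 members were higher and 1 lower at an unadjusted p under 0.05 (2.59% and 3.58% of all genes), and by DESeq2 1 and 1 (3.33% and 4.34%). Estimates were above 0 in 26 members and below 0 in 12, with a median log2 fold change (Stat3β TG relative to WT) of 0.35. Among all genes tested 51.4% were above 0 and the median was 0.01.

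What stood out was the spread within WT. The log2 standard deviation among the 3 WT libraries had a median of 0.60 over the members, against 0.33 over all genes tested, and for the Stat3β TG libraries 0.35 against 0.21. In 24 of the 38 members the highest WT library was over 2 times the lowest (29.6% of all genes tested), and in 13 members this held within Stat3β TG (16.2% of all genes). WT 1 was above both other WT libraries in 24 members (39.2% of all genes tested), and at least 2 times both in 12 (6.86%). WT 2 and WT 3 were the lowest pair of the 6 libraries in 18 members (21.9%) and the highest pair in 1, Eif2ak2 (20.5%). The mean log2 level over the 38 members was 8.37, 7.65 and 7.38 for WT 1 to 3 and 8.06, 8.01 and 8.19 for Stat3β TG 1 to 3. The Stat3β TG libraries thus lay between WT 1 and the other WT libraries. The mean over all genes tested ranged from 9.26 to 9.36 on the same scale.

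**Figure D1:**
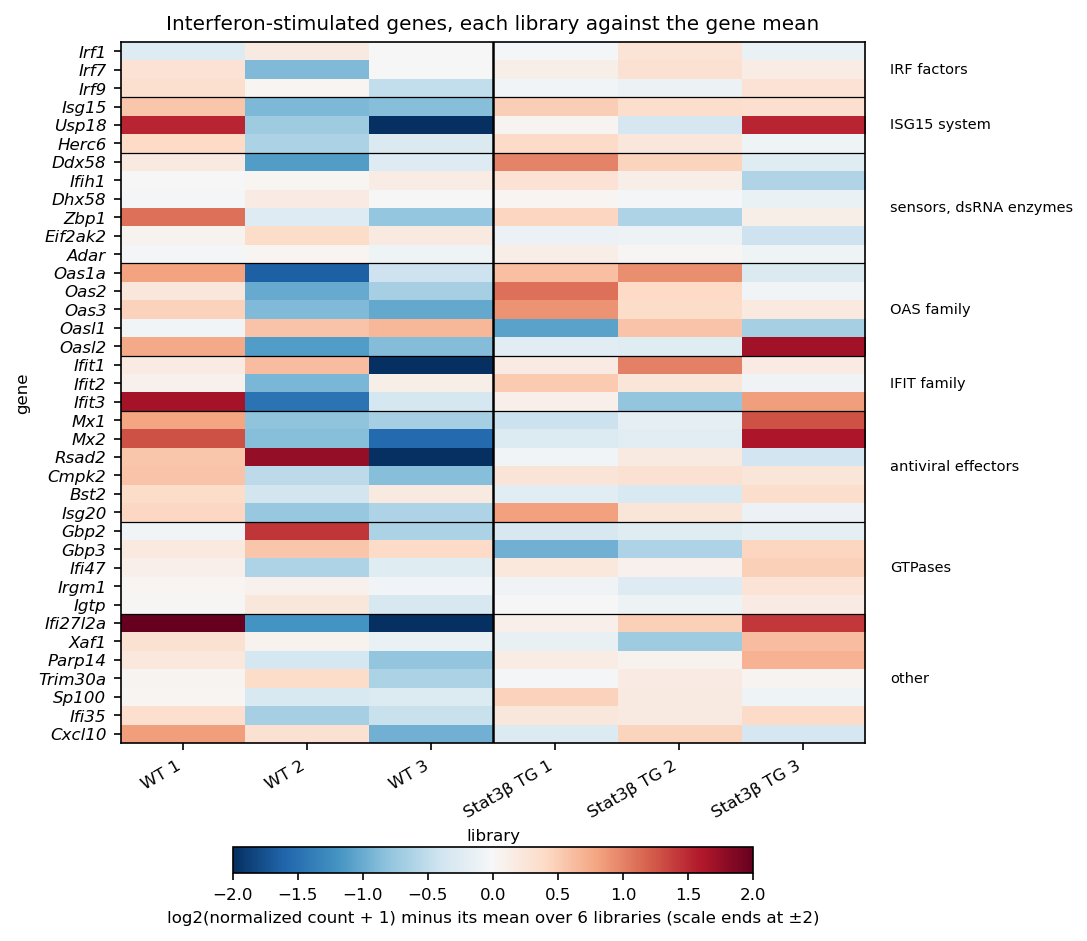
Each row is 1 of the 38 interferon-stimulated genes, grouped by role, each column 1 library, and the colour is log2(normalized count + 1) minus the gene's mean over the 6 libraries (red higher, blue lower, scale ending at 2 in either direction). WT 2 and WT 3 are the lowest pair in 18 genes, while WT 1 looks like the Stat3β TG libraries or exceeds them.

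The 3 transcription factors of the response overlapped between the groups, and 0 passed the test. Irf1, the factor of the type II response, stood at 2404, 3237 and 2848 normalized counts in WT 1 to 3 and at 2783, 3444 and 2598 in Stat3β TG 1 to 3. Irf9, the DNA-binding subunit of ISGF3, was at 1590.1, 1309 and 908 in the WT libraries and 1227, 1179.6 and 1553 in Stat3β TG. In both genes the groups overlapped, with every Stat3β TG value inside or near the WT range. Irf7, the factor that amplifies interferon production, was at 469, 207 and 387 in the WT libraries and at 417, 474 and 424 in Stat3β TG. WT 2 was the lowest in Irf7 and WT 3 the next, both below WT 1 and every Stat3β TG library. The log2 fold change was 0.38 (standard error, SE, 0.32, limma adjusted p = 0.701).

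The ISG15 system showed the division of the WT libraries plainly. Isg15, a ubiquitin-like modifier (Entrez 100038882, chromosome 4, 156199424 to 156200818, GRCm38), stood at 42.4, 14.9 and 15.5 normalized counts in WT 1 to 3. In Stat3β TG it was at 40.8, 36.9 and 36.5. WT 1 had the highest value of all and WT 2 and WT 3 the lowest, so that the WT mean was 24.3 ± 15.7 and the Stat3β TG mean 38.1 ± 2.37 (SD, n = 3 libraries each). The log2 fold change was 0.80 (SE 0.53, limma adjusted p = 0.675). Usp18, which removes ISG15 from proteins and blocks IFNAR2, was at 60.9, 12.2 and 4.22 in the WT libraries and 21.4, 16.0 and 60.7 in Stat3β TG. Here WT 1 and Stat3β TG 3 were equally high, and the log2 fold change was 0.82 (SE 0.95, limma adjusted p = 0.774). Herc6, the main ligase for ISG15 in mice, was at 632, 310.0 and 394 in the WT libraries and 624, 559 and 449 in Stat3β TG. The log2 fold change was 0.34 (SE 0.30, limma adjusted p = 0.712).

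Of 6 sensors and double-stranded RNA enzymes, 2 had estimates above 0 and 4 below, and 0 passed the test. Ddx58, which encodes the RNA helicase RIG-I (chromosome 4, 40203777 to 40239825), was at 421, 172 and 312 normalized counts in WT 1 to 3 and at 748, 509.7 and 314 in Stat3β TG 1 to 3. Stat3β TG 1 and Stat3β TG 2 exceeded every WT library and Stat3β TG 3 did not. The log2 fold change was 0.80 (SE 0.42, limma adjusted p = 0.668). Ifih1, the helicase MDA5, was at 529, 541 and 583 against 647, 571 and 348, and Dhx58, their regulator LGP2, ranged from 483 to 593 over all libraries. These helicases thus overlapped between the groups. Zbp1, a sensor of Z-form nucleic acid, was highest in WT 1 at 193 and ranged from 52.1 to 120.5 elsewhere. Eif2ak2, the kinase PKR that halts translation upon binding double-stranded RNA (chromosome 17, 78850504 to 78882572), was the member with the smallest p. It stood at 1533, 1882 and 1645 in the WT libraries and at 1347, 1356 and 1090.5 in Stat3β TG, so that every WT library exceeded every Stat3β TG library. It was the 1 member of 38 whose groups did not overlap, and its WT values were the higher ones, which held for 4.92% of all genes tested. The reverse, found for 0 members, held for 5.87%, and either direction for 10.8%. The WT mean was 1687 ± 178 and the Stat3β TG mean 1264 ± 151 (SD, n = 3 libraries each), 1.34-fold lower in Stat3β TG (log2 fold change -0.42, standard error 0.16, limma adjusted p = 0.668). Adar, which edits adenosine in double-stranded RNA, was nearly level at 3443 to 3995 in all 6 libraries.

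Among the oligoadenylate synthetases, whose product activates RNase L, 4 of 5 were higher in mean in Stat3β TG and 0 passed the test. Oas2 (chromosome 5, 120730333 to 120749886) stood at 427, 181 and 231 normalized counts in WT 1 to 3 and at 789.7, 483 and 353 in Stat3β TG 1 to 3. WT 1 lay above Stat3β TG 3, and WT 2 and WT 3 lay below every Stat3β TG library. The log2 fold change was 0.97 (SE 0.41, limma adjusted p = 0.668, unadjusted p = 0.0456). Its neighbour Oas3 was at 218, 85.3 and 77.4 in the WT libraries and 296, 204 and 181 in Stat3β TG, with a log2 fold change of 0.97 (SE 0.46, limma adjusted p = 0.668). Oas1a showed the widest gap within WT of the family, at 599.7, 109.6 and 258, against 523, 656 and 280.3 in Stat3β TG. Its log2 fold change was 0.83 (SE 0.61, limma adjusted p = 0.676). Oasl2, an OAS-like protein that retains synthetase activity, was at 67.5, 17.6 and 21.1 in the WT libraries and at 33.5, 33.2 and 128 in Stat3β TG. Oasl1, which represses translation of Irf7, had the opposite sign at 34.8, 54.1 and 57.7 against 16.7, 54.2 and 22.5. The Oas1 genes are near-identical paralogs, so their separate values are uncertain.

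**Figure D2:**
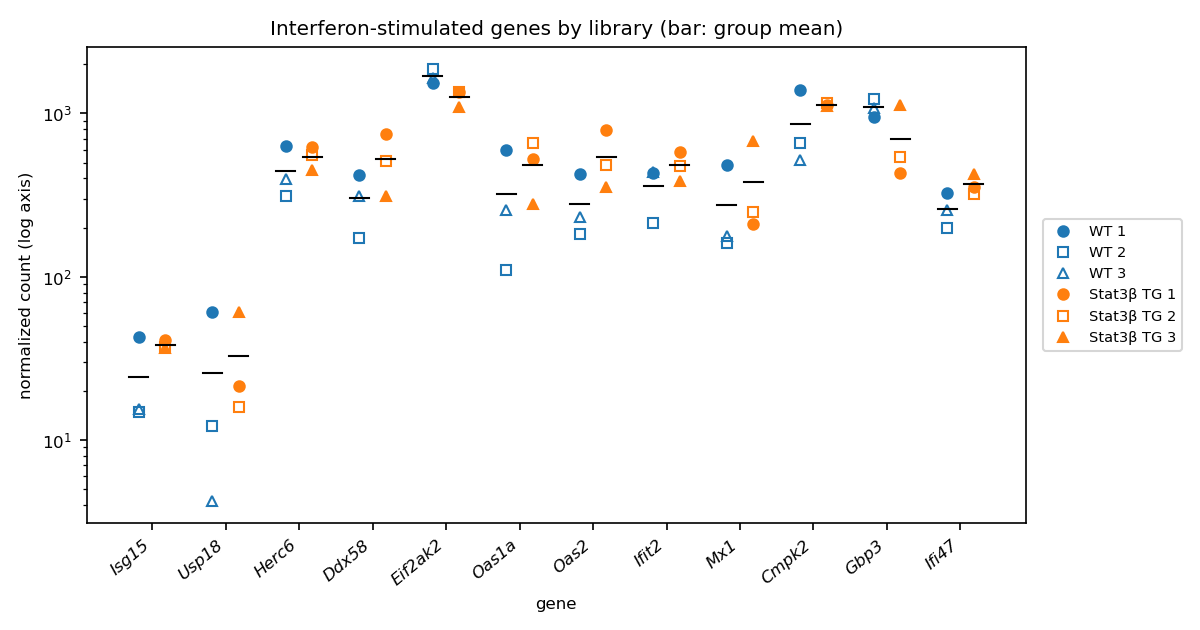
Normalized counts (log axis) of 12 interferon-stimulated genes are plotted per library, WT in blue and Stat3β TG in orange, with a bar at each group mean and a marker shape for each library. In Isg15, Herc6, Oas1a, Oas2 and Cmpk2 the open WT 2 and WT 3 markers lie below all Stat3β TG markers while the filled WT 1 marker lies among or above them, and in Eif2ak2 all WT markers lie above all Stat3β TG markers.

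The 3 IFIT genes lie together on chromosome 19 and encode proteins that bind foreign RNA, yet they differed widely in level. Ifit2 (34550550 to 34576534) stood at 431, 214 and 438 normalized counts in WT 1 to 3 and 582, 479 and 387 in Stat3β TG 1 to 3. The estimated log2 fold change was 0.47 (SE 0.33, limma adjusted p = 0.675). Ifit1 stood at 17.4, 24.4 and 2.81 in the WT libraries and 17.4, 32.0 and 17.4 in Stat3β TG. Ifit3 was at 31.6, 2.71 and 7.04 against 10.04, 4.93 and 17.4. Several of these values are near the limit that a count of 0 allows, 3 reads or 1.69 to 4.22 normalized counts depending on the library, which covers counting error only. Per kilobase of exon the mean over all libraries was 107 for Ifit2, 6.99 for Ifit1 and 7.04 for Ifit3. Ifit3 has a near-identical copy, Ifit3b, with which it may share reads.

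Among 6 antiviral effectors, 4 were higher in mean log2 level in Stat3β TG, and 0 passed the test. Cmpk2, a mitochondrial nucleotide kinase (chromosome 12, 26469117 to 26479837), stood at 1397, 657 and 519 normalized counts in WT 1 to 3 and at 1122, 1161 and 1112 in Stat3β TG 1 to 3. The Stat3β TG libraries were nearly equal, WT 1 was above them and WT 2 and WT 3 were far below. The WT mean was 858 ± 472 and the Stat3β TG mean 1132 ± 25.9 (SD, n = 3 libraries each), a log2 fold change of 0.53 (SE 0.34, limma adjusted p = 0.673). Its neighbour Rsad2, which encodes the antiviral enzyme viperin, did not follow it, at 74.0, 171 and 11.3 against 48.2, 56.6 and 38.2. Mx1, a GTPase gene whose promoter drives the Cre transgene, was at 485, 159.7 and 177 in the WT libraries and at 209, 247 and 679.8 in Stat3β TG. Mx1 was thus high in 1 library of each genotype, and its log2 fold change was 0.45 (SE 0.57, limma adjusted p = 0.795). Mx2, its neighbour and paralog, showed the same order of high libraries at 86.0, 19.0 and 11.3 against 28.8, 29.6 and 108. Bst2, the tether of budding virus, was at 1236, 743 and 1086 against 824, 777 and 1232. Isg20, an RNA exonuclease, was at 153, 67.7 and 74.6 against 204, 137 and 106.

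In 11 of the 38 members WT 1 and Stat3β TG 3 were the highest pair of the 6 libraries, against 11.1% of all genes tested. These were Usp18, Mx1, Mx2, Oasl2, Ifit3, Ifi27l2a, Irf9, Bst2, Xaf1, Parp14 and Ifi35. Ifi27l2a, a small mitochondrial protein (chromosome 12, 103433873 to 103443680), had the widest range of all, at 181, 19.0 and 5.63 normalized counts in WT 1 to 3 and 48.2, 62.8 and 121 in Stat3β TG 1 to 3. Its means were nearly equal, 68.4 ± 97.4 and 77.3 ± 38.4 (SD, n = 3 each), although the difference of mean log2 values, the log2 fold change, was 1.33 (SE 1.11, limma adjusted p = 0.699). The log2 mean of WT gives weight to WT 3, where the value stood near the limit that a count of 0 allows. The interval of Ifi27l2a also contains that of Ifi27 (103434189 to 103440245), which lies on the other strand. As the strand of the libraries was not given, reads of these genes may be mixed.

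The interferon-inducible GTPases attack the vacuoles of intracellular microbes and respond mainly to type II interferon. None of their 5 genes here had WT 1 and Stat3β TG 3 as the highest pair, which held for 11.1% of all genes tested. With so few genes this count does not set them apart. Igtp ranged from 315 to 464 and Irgm1 from 458 to 664 normalized counts over the 6 libraries, with overlapping groups, and 0 of 5 passed the test. Gbp3 (chromosome 3, 142560016 to 142573213) was at 957, 1226 and 1086 in WT 1 to 3 and at 429, 542 and 1125 in Stat3β TG 1 to 3. Stat3β TG 1 and Stat3β TG 2 were below every WT library, and Stat3β TG 3 was within the WT range. The log2 fold change was -0.76 (SE 0.34, limma adjusted p = 0.668). Gbp2 was at 57.7, 162 and 38.0 against 47.5, 50.5 and 52.8, so that WT 2 alone was high. Ifi47 alone of the 5 had WT 2 and WT 3 as the lowest pair, at 327, 199 and 258 against 352, 323 and 427. Its log2 fold change was 0.51 (SE 0.27, limma adjusted p = 0.668). The GBP genes are paralogs in clusters and can share reads.

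Of the remaining members, Sp100 was the most abundant, a component of nuclear bodies, at 7826, 6162 and 6319.5 normalized counts in WT 1 to 3 and 10489.5, 8685 and 7193 in Stat3β TG 1 to 3. Its log2 fold change was 0.37 (SE 0.18, limma adjusted p = 0.668). Parp14, an ADP-ribosyltransferase, was at 827, 555 and 412 in the WT libraries and 787, 749.8 and 1154 in Stat3β TG, with a log2 fold change of 0.61 (SE 0.30, limma adjusted p = 0.668). Ifi35, a partner of the STAT-binding protein NMI, was at 1044, 521 and 608 against 972, 936 and 1083, with a log2 fold change of 0.52 (SE 0.27, limma adjusted p = 0.668). In all 3 genes WT 2 and WT 3 were the lowest pair. Trim30a, Xaf1 and the chemokine gene Cxcl10 overlapped between the groups, with limma adjusted p-values of 0.865, 0.902 and 0.949. Per kilobase of exon, Bst2 and Sp100 had the highest mean levels over all libraries, 1089 and 1030 normalized counts, followed by Irf1 at 726, Ifi35 at 498 and Adar at 450. The lowest were Oasl2 at 7.87, Ifit3 at 7.04 and Ifit1 at 6.99. No exon length was matched for Mx1.

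Leaving out WT 1 raised the estimate in 30 of 38 members (51.1% of all genes tested). By construction these are the members in which WT 1 was above the mean log2 value of WT 2 and WT 3. Their estimates with WT 1 as the only WT library are lower by the same construction. The median log2 fold change of the members was then 0.63 (0.02 over all genes tested), 29 of 38 were above 0 (51.3% of all genes), and 14 were higher and 1 lower at an unadjusted p under 0.05 (14.9% and 12.1% of all genes). In 18 members both remaining WT libraries were below all Stat3β TG libraries, against 23.8% of all genes, and in 1 above them (22.4%). Of all members 1 passed over all genes, Cmpk2 (log2 fold change 0.95, limma adjusted p = 0.0476), where 2.74% of all genes tested passed. Because WT 1 was left out for its place among these same values, that p-value is a description only. With WT 1 as the only WT library the median was -0.18, 11 of 38 estimates were above 0 (50.4% of all genes), and 0 members passed (0.0712% of all genes) or had an unadjusted limma p under 0.05 (3.82%). WT 1 then lay below all Stat3β TG libraries in 1 member and above them in 13 (22.9% and 21.4% of all genes). In that fit 15 estimates turned from positive to negative, those of Irf7, Irf9, Isg15, Usp18, Herc6, Oas1a, Oasl2, Ifit3, Mx1, Mx2, Cmpk2, Isg20, Igtp, Ifi27l2a and Ifi35. The share of all genes tested that turned was not computed. With WT 2 as the only WT library, which shares the sex-linked pattern of Stat3β TG, the median was 0.58, 12 members were higher and 3 lower at an unadjusted p under 0.05 (16.0% and 11.3% of all genes), and 0 passed (5.85% of all genes). WT 2 lay below all Stat3β TG libraries in 21 members and above them in 7 (36.8% and 34.8%). In these last fits the single WT library is assumed to vary like the other group. Without WT 3 the median was 0.06, and without WT 2 it was 0.17.

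**Figure D3:**
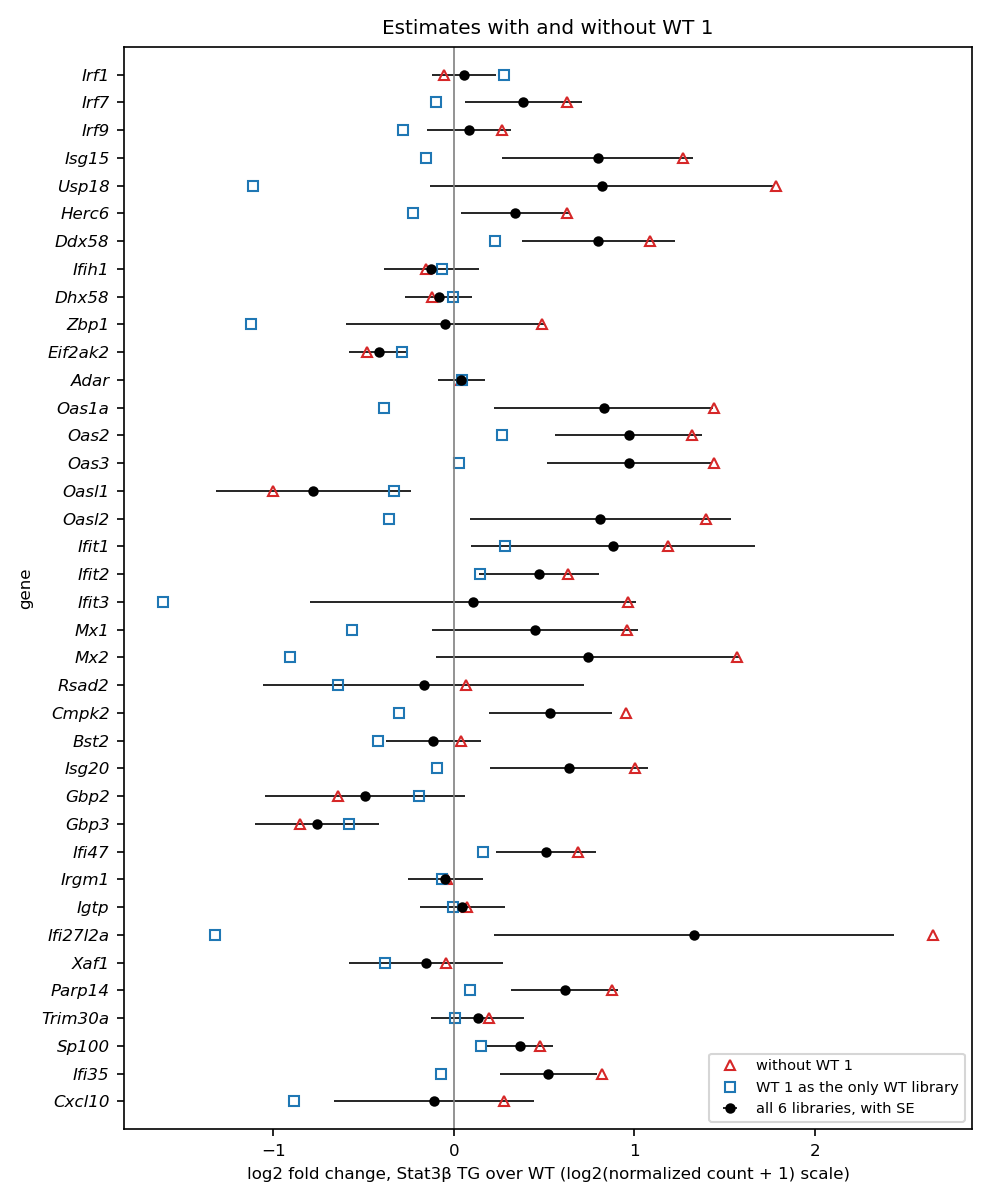
Log2 fold changes of Stat3β TG over WT are shown for the 38 genes with all libraries (black, bars are standard errors), without WT 1 (red triangles) and with WT 1 as the only WT library (blue squares, no replicate in that arm). Most red triangles lie to the right of the black points and most blue squares to the left of them. The medians are 0.63 (red), 0.35 (black) and -0.18 (blue). By construction the triangle and the square of a gene lie on opposite sides of its black point, so the squares are no separate result.

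The summed markers of NK and T cells and of neutrophils were, like 18 of the members, lowest in WT 2 and WT 3. The 9 genes of NK and T cells summed to 1788 normalized counts in WT 1, 245 and 455 in WT 2 and WT 3, and 952 to 1335 in Stat3β TG. Of these 9 genes 6 passed the filter, and Cd3e was at 0 in every library. WT 2 and WT 3 were the lowest pair in 5 of the 6, all but Cd3g. The 8 neutrophil genes summed to 347277, 89817 and 280296 in WT 1 to 3 and to 357516 to 493620 in Stat3β TG. WT 2 and WT 3 were the lowest pair in 5 of the 8 (S100a8, S100a9, Ltf, Retnlg and Cd177). Ngp, Mmp8 and Camp lacked that order, and Ngp was at 109577 in WT 3 against 91302 in WT 1. Of 5 tested genes of conventional dendritic cells, 3 had WT 2 and WT 3 as the lowest pair (Zbtb46, Itgax and Cd74), and Xcr1 and H2-Ab1 did not. The 8 macrophage genes summed to 9675, 1427 and 5792 in WT and 4418 to 12110 in Stat3β TG, and the complement genes C1qa, C1qb and C1qc were at most 52.9 in any library. The 8 genes of plasmacytoid dendritic cells, which make much of the type I interferon in the body, summed to 4915, 9759 and 15591 in WT and 5764 to 9641 in Stat3β TG, most of it from Tcf4. Without Tcf4 they summed to 1382, 336 and 1329.8 in WT and 1274 to 1858 in Stat3β TG, and of the 6 that passed the filter Lair1 alone had WT 2 and WT 3 as the lowest pair. The 6 monocyte genes summed to 87196 in Stat3β TG 3, against 47548 to 56018 in the other libraries, most of it from Ly6c2 and F13a1. The other 4, Csf1r, Ccr2, Cx3cr1 and Ms4a6c, all had WT 1 and Stat3β TG 3 as the highest pair and WT 2 and WT 3 as the lowest. Among the members Usp18, Oasl2, Mx1, Mx2, Ifi27l2a, Parp14 and Ifi35 had that order, and so did Cd74 of conventional dendritic cells. Counted separately, the highest pair held for 11.1% and the lowest pair for 21.9% of all genes tested. Ly6c2 and F13a1 did not have that order. Ly6c2 was at 23431, 34497 and 28444 in WT 1 to 3 and 19883, 23995 and 23599 in Stat3β TG 1 to 3. F13a1 was at 6975, 13193 and 20074.5 in the WT libraries and 14526.5, 12182 and 33874 in Stat3β TG. Ccr2, a receptor that guides monocytes out of bone marrow, was at 2861, 1018 and 452 in WT 1 to 3 and at 1191, 1305 and 5567 in Stat3β TG 1 to 3. Siglech, a surface marker of plasmacytoid dendritic cells, was at most 9.85 in the WT libraries and at 14.7, 3.69 and 120 in Stat3β TG. It did not pass the filter. The rest of its list differed: Tcf4, Cox6a2 and Pacsin1 were highest in WT 3, at 14261.5, 61.9 and 66.1. Lair1 was highest in Stat3β TG 1 at 1550. Ccr9 ranged from 9.80 to 15.7 and Cd300c from 79.9 to 127, and Klk1 was at most 1.12. The part of these cells in the result was not tested, and in sorted bulk samples fewer cells of a type and less RNA per cell cannot be told apart.

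Interferon ligand genes gave few reads. Of 21 ligand genes 17 were at 0 in all 6 libraries, and Ifnb1 had 1 read, in WT 1. Ifng passed the filter, at 7.62, 13.5 and 0 normalized counts in WT 1 to 3 and 24.1, 14.8 and 4.49 in Stat3β TG 1 to 3, with overlapping groups (limma adjusted p = 0.695).

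Receptors for type I and II interferon were abundant and overlapped between the groups. Ifnar1 ranged from 3080.3 to 4463 normalized counts over the 6 libraries, Ifnar2 from 4431 to 6975, Ifngr1 from 10493 to 22422 and Ifngr2 from 1665 to 3086. Of 6 receptor genes 0 passed by limma and 1 had an unadjusted p under 0.05, Ifnlr1, the type III receptor chain, at 146, 92.1 and 70.4 in the WT libraries and 498, 276 and 278 in Stat3β TG. Each Stat3β TG library exceeded each WT library, including WT 1, which held for 1 of the 6 receptor genes and 5.87% of all genes tested. The log2 fold change was 1.77 (SE 0.39, limma adjusted p = 0.668, edgeR adjusted p = 0.688, DESeq2 adjusted p = 0.0174). Without WT 1, a library left out on the ground of these same data, it was 2.05 (limma adjusted p = 0.0472).

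Stat2, a subunit of ISGF3, was at 2723 to 3229 normalized counts over the 6 libraries (limma adjusted p = 0.899), and the kinase gene Tyk2 at 4158 to 5400.3 (limma adjusted p = 0.698). Among 6 inhibitors Socs1, which binds and blocks JAK kinases, was at 140.4, 330.3 and 722 in the WT libraries and 102, 172 and 88.2 in Stat3β TG, with a log2 fold change of -1.47 (SE 0.59, limma adjusted p = 0.668). WT 1 was the low library of its group, opposite to Isg15 and Oas1a. The phosphatase gene Ptpn6 was at 16837, 11669 and 13120.3 in the WT libraries and 23032, 18326 and 18153 in Stat3β TG, with a log2 fold change of 0.52 (SE 0.19, limma adjusted p = 0.668).

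In 14 genes of nucleic acid sensing upstream of interferon, 13 were tested and 0 passed by limma. Irf3, the factor that first induces Ifnb1, was at 3079, 2527 and 2651 normalized counts in WT 1 to 3 and 3125, 3049 and 3654 in Stat3β TG 1 to 3. Tlr7, an endosomal receptor for single-stranded RNA, was at 158, 187 and 238 in the WT libraries and 452, 521 and 400.02 in Stat3β TG, with no overlap. This gave a log2 fold change of 1.25 (SE 0.26, limma adjusted p = 0.668, edgeR adjusted p = 0.688, DESeq2 adjusted p = 0.00892). Tlr7 was the 1 gene of the 13 without overlap between the groups, against 10.8% of all genes tested. DESeq2 passed 0.134% of all genes tested. Ticam1, the adaptor of Toll-like receptor 3, was at 1211, 1022 and 753 against 1331, 1384 and 1125 (limma adjusted p = 0.668).

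A wider list of interferon-stimulated genes outside the 38 held 67 genes, of which 59 were tested, Stat2 among them. Of these 41 were above 0 and 18 below, with a median log2 fold change of 0.26. By limma 0 passed, and 6 were higher and 1 lower at an unadjusted p under 0.05 (3.56% and 2.54% of all genes tested). All Stat3β TG libraries exceeded all WT libraries in 8 and lay below them in 1 (5.87% and 4.92% of all genes tested). Irf2, a factor that competes with IRF1 at its sites, was at 1696, 620.0 and 516 normalized counts in WT 1 to 3 and 2095, 2033 and 2229 in Stat3β TG 1 to 3. Its log2 fold change was 1.37 (SE 0.41, limma adjusted p = 0.668). Slfn1, a Schlafen gene of lymphoid and myeloid cells, was at 271, 107 and 84.4 against 566, 331 and 417, with a log2 fold change of 1.66 (SE 0.46, limma adjusted p = 0.668). In both genes all Stat3β TG libraries exceeded all WT libraries, and WT 1 was again the highest of its group. Without WT 1 the estimates were 1.90 and 2.16 (limma adjusted p = 0.0354 and 0.0385), where the choice to leave out WT 1 came from these same data.

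**Figure D4:**
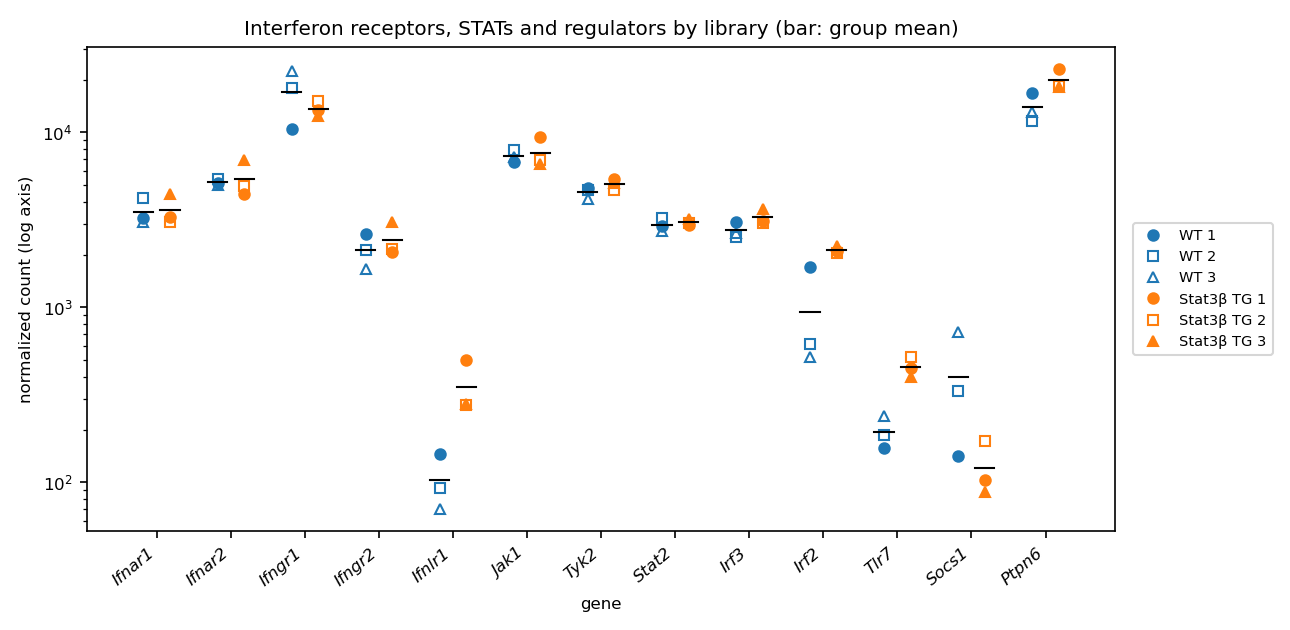
Normalized counts (log axis) of 13 genes that carry or regulate the interferon signal are plotted per library, WT in blue and Stat3β TG in orange, with a bar at each group mean. Ifnlr1, Irf2, Tlr7 and Ptpn6 have no overlap between the groups, and Ifnar1, Ifnar2 and Stat2 overlap. Of all genes tested 10.8% have no overlap, and the genes shown were named in part for the smallest p of their lists.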

How the data were processed

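RNA sequencing measured transcripts of sorted blasts, 3 WT and 3 Stat3β TG libraries grouped by sample title. The tools named in the submitters' processing notes are STAR, FastQC and DESeq2, with GRCm38 (mm10). For versions, counter, strand and annotation, nothing was given in the sources used. The authors deposited 1 normalized count per gene and library (unit: signal). Every value was a whole multiple of 1 step per library (100% of 146724 values whole within 0.001), so whole reads were recovered.

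Symbols came from the RefSeq table of GRCm38.p6 (24376 of 24454 IDs). Genes reaching 10 in 3 or more libraries were tested on log2(value + 1) with limma 3.58.1 in R 4.3.3 (trend, robust, group only, two-sided, Benjamini-Hochberg over 12642 genes, threshold 0.05). The pseudocount understates changes of low genes. Standard errors are limma's moderated ones. Alternatives on recovered reads were edgeR 4.0.16 and DESeq2 1.42.0. Others were pseudocounts of 0.5 and 5, other filters and scalings, a replicate block and libraries left out. Methods were tested on simulated counts. Exon lengths are merged GENCODE vM21 exons.

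The members and lists were chosen with earlier results of these data known. Per role, the 3 members with the smallest p and the most abundant were to be named. Oas1a, Oasl2, Mx1, Bst2, Zbp1, Dhx58, Rsad2, Ifi27l2a, Irgm1, Igtp, Trim30a, Xaf1 and Cxcl10 were described after their values were seen. Of the genes in the lists, 1 is counted but not reported by itself here.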

Additional observations from a re-analysis of the deposited data

How the results depend on the processing

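Pseudocounts, filters, TMM scaling and limma without robust moderation kept the counts of members within 1.5 times and the median log2 fold change of 0.35 within 0.1. The number of all genes passing was 0, against 17 by DESeq2, 9 with WT 1 and 740 with WT 2 as the only WT library, and 0 to 346 when 1 library was left out. Members passing were 0, and 0 to 1 with 1 library left out. The median was 0.22 by edgeR and by DESeq2, 0.058 to 0.63 with 1 library left out (highest without WT 1, lowest without WT 3), 0.58 with WT 2 alone, and turned to -0.18 with WT 1 alone, where 11 estimates were positive and 27 negative.

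Members higher at an unadjusted p under 0.05 were 1, against 0 under quantile normalization, 0 by edgeR, 2 with the replicate block, 0 to 14 with 1 library left out, 0 with WT 1 alone and 12 with WT 2 alone. Lower ones were 1, against 2 under quantile normalization, 0 to 1 with 1 library left out, 0 with WT 1 alone and 3 with WT 2 alone. Members not overlapping and higher were 0, against 1 under quantile normalization, 0 to 18 with 1 library left out, and 1 and 21 with WT 1 or WT 2 alone. Those lower were 1, against 1 to 4, 13 and 7. Fewer samples in an arm by construction make separation easier.

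With WT 1 alone the log2 fold change turned to -0.10 for Irf7, -0.15 for Isg15, -1.11 for Usp18, -0.23 for Herc6, -0.39 for Oas1a, -0.57 for Mx1, -0.30 for Cmpk2, -1.32 for Ifi27l2a and -0.069 for Ifi35. Mx1 was -0.076 without Stat3β TG 3 and 0.96 without WT 1. The replicate numbers did not pair the libraries: deviations of same-numbered libraries correlated at 0.14, 0.10 and -0.11. The replicate block changed no call of a member, and with it 0 genes passed. Depth limits Ifit1, Ifit3, Usp18 and Ifi27l2a, among others, which had 1 or more libraries near the floor of 3 reads.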
